A study of Mus musculus with 12 samples.

Results

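The genes described here are 9 genes of the insulin, IGF and mTOR pathway, *Igf1r*, *Insr*, *Irs1*, *Irs2*, *Foxo1*, *Foxo3*, *Mtor*, *Rptor* and *Tsc2*. They were chosen by name and all 9 were found among the 34245 genes of the count table. RNA was sequenced from stem cells (ISC) and enterocytes (AE) sorted from the small intestine of young and aged male mice, with 3 libraries in each of the 4 groups. All mice were C57BL/6 and carried the *Lgr5*-EGFP-IRES-creERT2 knock-in, in which the promoter of the stem cell gene *Lgr5* drives GFP and an inducible Cre. No mice without it and no further treatment entered these groups. The young mice were about 8 months old, which is middle age, and the aged mice about 27 months old. ISC were the GFP-high, DAPI-negative cells of crypts, and AE were the Epcam-high, CD31-negative, CD45-negative, DAPI-negative cells of villi, a gate that takes all villus epithelial cells and not absorptive cells alone. The paper describes enzymes, dispase, collagenase and DNase, for the crypt suspensions, and ISC did not go through the antibody staining of AE. Cell type and preparation therefore cannot be told apart in comparisons of AE and ISC.

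Insulin and the insulin-like growth factors bind the receptor tyrosine kinases INSR and IGF1R, which phosphorylate the adaptors IRS1 and IRS2 and so recruit PI3K and activate AKT. AKT holds the transcription factors FOXO1 and FOXO3 in the cytoplasm and inhibits TSC2, a subunit of the complex that restrains RHEB and mTORC1. mTORC1, the nutrient-sensing kinase complex with mTOR as its catalytic subunit and RAPTOR as the subunit that recruits substrates, promotes protein synthesis and restrains autophagy. Reduced activity of this pathway extends lifespan in several animals, and in the intestine it is known for its part in crypt growth and in the response of stem cells to diet. What follows concerns RNA levels only, and neither phosphorylation nor protein was measured.

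Depth was between 11893817 and 26796461 counts in 11 libraries and 110794420 in the third young AE library, which stood apart. Levels are given as CPM, the counts of a gene relative to the scaled total of its library, and log2 CPM correlated between libraries of a group with Pearson coefficients from 0.967 to 0.983. The sorted fractions carried the markers of their labels. The summed level of 8 stem cell markers, such as *Lgr5* and *Olfm4*, was 5812 to 8246 CPM in ISC and 89.5 to 620 CPM in AE, and that of 10 enterocyte markers was 1360 to 8279 CPM in ISC and 61670 to 97090 CPM in AE. AE also held 29890 to 61740 CPM of 7 goblet cell markers and 3395 to 12230 CPM of 8 enteroendocrine markers, and stromal and endothelial markers did not exceed 4.66 CPM in any library. In the third young ISC library the enterocyte sum, 8279 CPM, exceeded the stem cell sum, 5966 CPM. The first and second young ISC libraries had 3416 and 3079 CPM of enterocyte markers. The part of goblet and enteroendocrine cells of AE, or of enterocytes within ISC, in the differences between AE and ISC was not tested.

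The promoters of 4 members are shown, chosen by their RNA in ISC and AE and for a similar base composition. They are those of *Igf1r*, which was lower in AE, *Irs2* and *Foxo3*, which were higher, and *Irs1*, the paralogue of *Irs2*, for which no difference was called. Each run is the 250 bases before the RefSeq transcription start site on GRCm38.p6, on the strand of the gene. The runs lie at chr7:67952007-67952256 on the plus strand for *Igf1r* and chr8:11008930-11009179 on the minus strand for *Irs2*. They lie at chr1:82291440-82291689 for *Irs1* and chr10:42276696-42276945 for *Foxo3*, both on the minus strand. The RefSeq start sites differ from the starts of the counted genes, whose positions are given below. The runs of *Igf1r*, *Irs2* and *Irs1* end before the counted gene begins, and that of *Foxo3* reaches into it. Capitals mark CACGTG, the E-box read by TFEB and other basic helix-loop-helix factors, and TGTTTTG, which is the insulin response motif CAAAACA of FOXO factors on the opposite strand.
Igf1r: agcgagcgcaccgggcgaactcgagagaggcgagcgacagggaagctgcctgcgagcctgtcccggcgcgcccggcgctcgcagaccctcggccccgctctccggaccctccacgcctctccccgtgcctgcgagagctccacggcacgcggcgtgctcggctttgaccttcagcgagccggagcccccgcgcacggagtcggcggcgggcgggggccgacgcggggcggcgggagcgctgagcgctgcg
Irs2: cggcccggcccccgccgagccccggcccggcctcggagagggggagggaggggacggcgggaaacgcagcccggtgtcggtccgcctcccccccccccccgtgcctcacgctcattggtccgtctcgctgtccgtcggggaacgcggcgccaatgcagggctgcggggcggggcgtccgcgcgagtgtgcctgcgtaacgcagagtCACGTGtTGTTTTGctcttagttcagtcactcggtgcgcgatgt
Irs1: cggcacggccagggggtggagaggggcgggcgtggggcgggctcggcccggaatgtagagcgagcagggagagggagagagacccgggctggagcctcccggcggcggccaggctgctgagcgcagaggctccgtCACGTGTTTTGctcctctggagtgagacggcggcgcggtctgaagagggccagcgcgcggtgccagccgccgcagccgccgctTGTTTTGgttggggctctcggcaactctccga
Foxo3: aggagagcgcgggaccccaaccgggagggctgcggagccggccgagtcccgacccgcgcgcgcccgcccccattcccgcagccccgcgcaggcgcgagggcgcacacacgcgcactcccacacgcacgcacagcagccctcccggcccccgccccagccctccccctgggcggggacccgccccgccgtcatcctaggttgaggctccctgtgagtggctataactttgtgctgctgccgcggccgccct
The *Irs2* promoter held CACGTG at -44 to -39 and TGTTTTG at -37 to -31 from the RefSeq start site. The *Irs1* promoter held CACGTG at -115 to -110, which shares 2 bases with TGTTTTG at -111 to -105, and another TGTTTTG at -32 to -26. Both adaptor genes thus had CACGTG closely followed by TGTTTTG. The RNA levels of *Irs1* and *Irs2* differed widely, and whether these motifs act on either gene was not tested. The spacing of the motifs and their distance from the start site differed, and the second TGTTTTG was in *Irs1* only. Of 32851 promoters of this length, 6.02% held CACGTG, 5.56% held CAAAACA on either strand and 0.295% held both. CACGTG starting at most 10 bases before TGTTTTG, an arrangement defined after these sequences had been read, was found in 3 promoters, of which *Irs1* and *Irs2* are 2. Unlike the shares on either strand, this arrangement was searched in a single orientation, and its mirror form was not counted. Neither these motifs nor the FOXO core motif GTAAACA, present on either strand in 3.17% of promoters, matched within the windows of *Igf1r*, *Foxo1*, *Foxo3*, *Mtor*, *Rptor* or *Tsc2*, and *Insr* has no entry. GC content was 77.6% in *Igf1r*, 76.4% in *Foxo3*, 72.8% in *Irs2* and 72.4% in *Irs1*, against a median of 52.4% over all promoters.

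In young mice, *Igf1r* RNA was lower in AE than in ISC and *Insr*, *Irs2* and *Foxo3* were higher, with 4 of 9 members past a false discovery rate (FDR) of 0.05 in the quasi-likelihood test of edgeR, adjusted after Benjamini and Hochberg over all genes tested. In aged mice the same 4 members passed in the same directions, and *Foxo1* was higher too. Over all genes tested, 55.6% were called in young and 64.9% in aged mice, so the number of members called (4 and 5 of 9) was close to that of the transcriptome at large. The median log2 difference between AE and ISC was 0.35 over the members at both ages, against 0.15 over all genes in young and -0.13 in aged mice. Upper-quartile scaling in place of TMM put the median of all genes at 0.03 in young and -0.22 in aged mice. Members moved down too, such as *Mtor* from 0.35 and 0.24 to 0.23 and 0.15, and *Rptor* from 0.37 and 0.35 to 0.25 and 0.26. Under each of 3 scalings, 7 members were higher and 2 lower in AE, and the share of all genes higher in AE is not given here. As these are bulk samples, fewer cells of a type and less RNA per cell cannot be told apart.

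**Figure D1:**
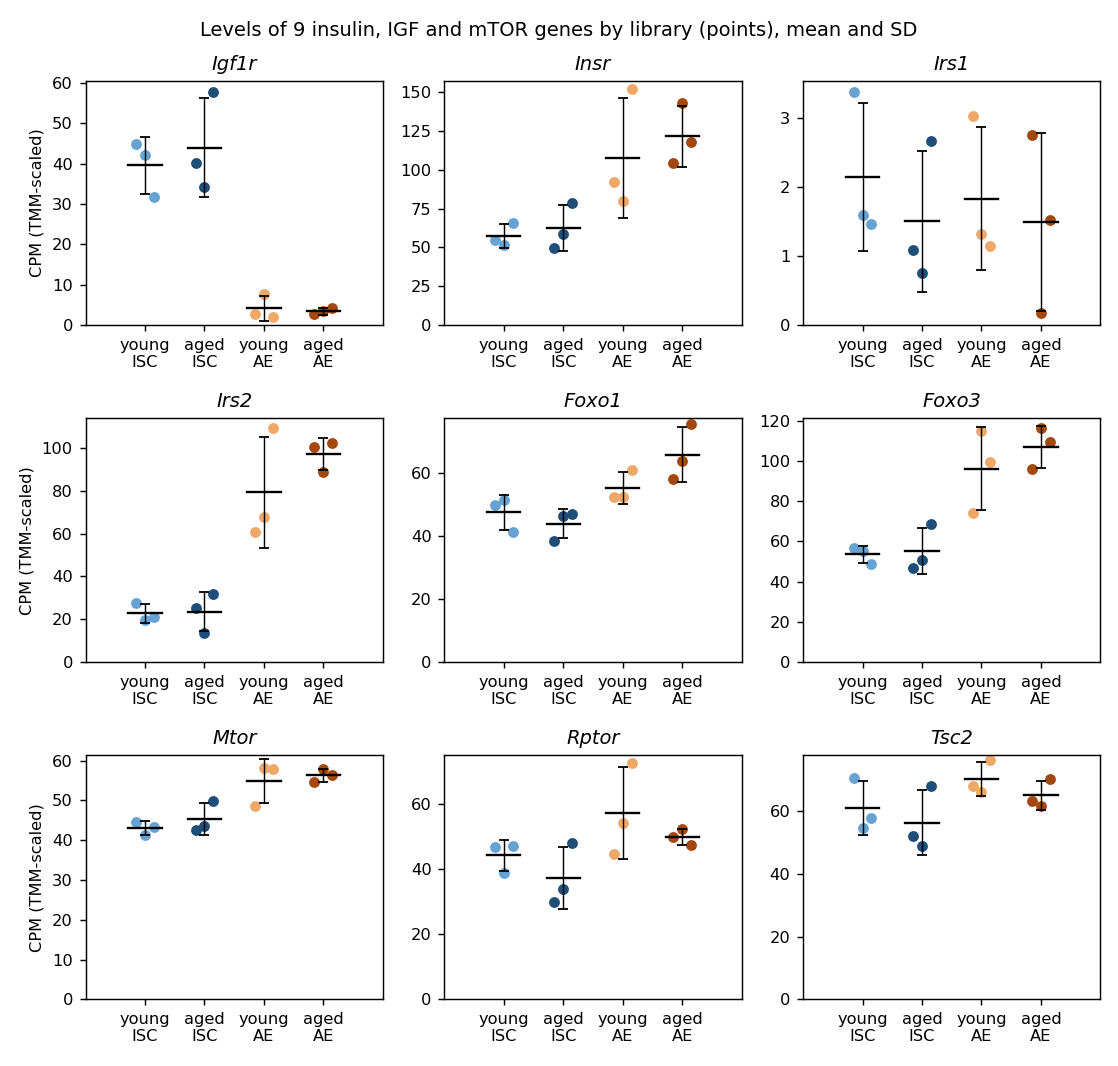
Level of each member in CPM (vertical axis, from 0) in the 12 libraries, as points by group, with the mean (horizontal bar) and SD of 3 libraries. *Igf1r* lay between 31.6 and 57.6 CPM in ISC and between 2.02 and 7.69 CPM in AE, whereas *Irs2* lay between 13.8 and 32.0 CPM in ISC and between 60.9 and 109 CPM in AE.

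*Igf1r* encodes the IGF1 receptor, the main receptor of IGF1 and IGF2, and lies on the plus strand at chr7:67952827-68233668. Its level was 44.8, 42.2 and 31.6 CPM in the young ISC libraries and 40.1, 34.2 and 57.6 CPM in the aged ones. In AE it was 2.86, 7.69 and 2.02 CPM in young and 2.66, 3.40 and 4.36 CPM in aged libraries, from 28 to 169 counts. Every AE library lay below every ISC library, and the highest AE value was that of the second young library. In young mice AE differed from ISC by -3.31 on the log2 scale (standard error 0.50, 95% interval -4.48 to -2.15, FDR = 0.00125, edgeR), a 9.92-fold lower level. In aged mice it was -3.74 (standard error 0.27, 95% interval -4.33 to -3.14, FDR = 1.1e-06, edgeR), a 13.3-fold lower level. Of all genes tested, 3.32% in young and 7.37% in aged mice fell as far or further. Without the second young AE library the value in young mice was -4.16, and without the third it was -2.95.

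Among AE libraries, *Igf1r* and stem cell markers were highest in the same one. The second young AE library had 7.69 CPM of *Igf1r*, 19.5% of the young ISC mean, and 620 CPM of the 8 stem cell markers, 8.87% of the young ISC mean. Its *Lgr5* level was 4.71 CPM, or 4.78% of the young ISC mean. In the other 5 AE libraries *Igf1r* was at 5.11% to 9.93% of the ISC mean of the same age, stem cell markers were at 1.28% to 2.96% and *Lgr5* was at 0.479% to 2.07%. The *Igf1r* share of the ISC level was above the share of these stem cell markers in all 6 AE libraries. This contrast does not extend to proliferation and Paneth cell markers, whose shares were not computed. Their levels, given next, fell less steeply from ISC to AE than those of the stem cell markers. The summed level of 8 proliferation markers was 1296 to 1446 CPM in young ISC and 129.6, 368.6 and 77.2 CPM in young AE. In aged mice it was 1152 to 1436 CPM in ISC and 90.9 to 95.2 CPM in AE. Paneth cell markers were at 545 to 1608 and 636 to 1033 CPM in young and aged ISC. They were at 75.6, 226.7 and 52.1 CPM in young AE and 52.0 to 91.6 CPM in aged AE. The part of remaining crypt cells in the *Igf1r* level of AE was not tested beyond these values.

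**Figure D2:**
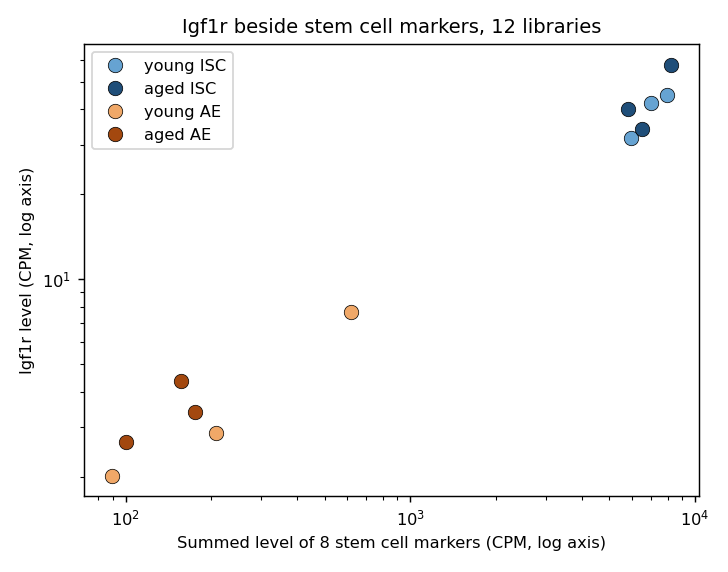
*Igf1r* level (vertical log axis, CPM) against the summed level of 8 stem cell markers (horizontal log axis, CPM), with a point for each of the 12 libraries, coloured by group. ISC libraries lie at 5812 to 8246 CPM of markers and AE libraries at 89.5 to 620 CPM, where the library richest in markers also has the highest *Igf1r* level, 7.69 CPM.

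*Insr* encodes the insulin receptor and lies on the minus strand at chr8:3122061-3279617. It was at 54.9, 51.4 and 65.7 CPM in young ISC and at 92.1, 79.6 and 151.8 CPM in young AE. In aged mice it was at 49.9, 58.7 and 78.8 CPM in ISC and at 104.1, 142.8 and 117.6 CPM in AE. AE libraries lay above ISC libraries at both ages, with the deepest library the highest of all. *Insr* rose in AE by 0.91 on the log2 scale in young (standard error 0.25, 95% interval 0.34 to 1.48, FDR = 0.0138, edgeR) and 0.89 in aged mice (standard error 0.20, 95% interval 0.44 to 1.34, FDR = 0.003, edgeR). The call in young mice was lost without the deepest library (0.51, FDR = 0.0518) and without the first (0.88, FDR = 0.0527) or the second (0.84, FDR = 0.0558) young ISC library, while thinning the deepest library to the depth of the others left it at 0.92 (FDR = 0.0135, edgeR).

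The receptors therefore differed in opposite directions between the cell types. Per kilobase of exon, *Igf1r* made up 40%, 40.2% and 28.2% of the summed *Igf1r* and *Insr* level in the ISC libraries of young mice and 39.7%, 32.3% and 37.4% in those of aged mice. In AE it made up 2.48%, 7.33% and 1.08% in young and 2.05%, 1.91% and 2.95% in aged mice. The share was 32.5 percentage points lower in AE of young and 34.2 points lower in AE of aged mice, with no overlap (exact permutation test, two-sided, P = 0.1 for each, the smallest P that 3 against 3 libraries allow). Between ages the share was 36.1% ± 6.85 and 36.5% ± 3.79 in young and aged ISC (SD, n = 3, exact permutation test, P = 1) and 3.63% ± 3.28 and 2.3% ± 0.56 in AE (SD, n = 3, exact permutation test, P = 0.8).

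*Irs1* and *Irs2* encode the adaptors that carry the signal of both receptors to PI3K. *Irs2*, on the minus strand at chr8:10984681-11008458, was at 27.9, 19.5 and 21.2 CPM in young ISC and at 60.9, 67.6 and 109 CPM in young AE. In aged mice it was at 25.1, 13.8 and 32.0 CPM in ISC and at 100.4, 88.5 and 102.4 CPM in AE. No AE library overlapped an ISC library. *Irs2* rose in AE by a log2 fold change of 1.79 in young (standard error 0.26, FDR = 0.000665, 3.47-fold) and 1.96 in aged mice (standard error 0.26, FDR = 7.47e-05, 3.9-fold, edgeR), the largest rise among the 9 members. With single libraries left out in turn, it stayed between 1.43 and 1.96 in young and between 1.70 and 2.23 in aged mice.

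*Irs1*, on the minus strand at chr1:82233101-82291416, had the lowest mean level of the members in each group. It was at 3.38, 1.59 and 1.46 CPM in young ISC, 1.09, 0.76 and 2.67 CPM in aged ISC, 3.03, 1.32 and 1.15 CPM in young AE and 2.76, 0.18 and 1.53 CPM in aged AE, where the lowest value stands for 2 counts. All 4 groups overlapped. AE differed from ISC by -0.32 on the log2 scale (95% interval -1.52 to 0.88, FDR = 0.622, edgeR) in young and by -0.10 (95% interval -1.65 to 1.44, FDR = 0.905, edgeR) in aged mice, and the latter interval includes the 0.89 of *Insr*.

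*Foxo1* and *Foxo3* encode transcription factors that are active when insulin signalling is low. *Foxo3*, on the minus strand at chr10:42181841-42276755, was at 56.7, 55.5 and 48.8 CPM in young ISC and at 74.2, 115 and 99.4 CPM in young AE. In aged mice it was at 46.7, 50.6 and 68.5 CPM in ISC and at 95.7, 116.3 and 109.1 CPM in AE. All AE libraries were above all ISC libraries of either age. The rise was 0.84 on the log2 scale in young (standard error 0.19, FDR = 0.00539, 1.79-fold) and 0.88 in aged mice (standard error 0.18, FDR = 0.0015, 1.84-fold, edgeR).

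*Foxo1*, on the plus strand at chr3:52268336-52353221, was at 49.8, 51.6 and 41.3 CPM in young and 38.5, 46.3 and 46.9 CPM in aged ISC. In AE it was at 52.3, 52.2 and 61.0 CPM in young and 58.1, 63.8 and 75.5 CPM in aged mice. AE libraries lay above ISC libraries at both ages, by a narrow margin in young mice. AE differed from ISC by 0.21 on the log2 scale (standard error 0.16, 95% interval -0.14 to 0.57, FDR = 0.268, edgeR) in young and 0.51 (standard error 0.16, 95% interval 0.15 to 0.87, FDR = 0.017, edgeR) in aged mice. The call in aged mice was lost without the first aged ISC library (0.43, FDR = 0.0756) or the third aged AE library (0.41, FDR = 0.0655). That *Foxo1* passed at a single age does not show a difference between ages, and the difference of its AE-to-ISC changes was 0.37 (95% interval -0.10 to 0.83, FDR = 1, edgeR).

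**Figure D3:**
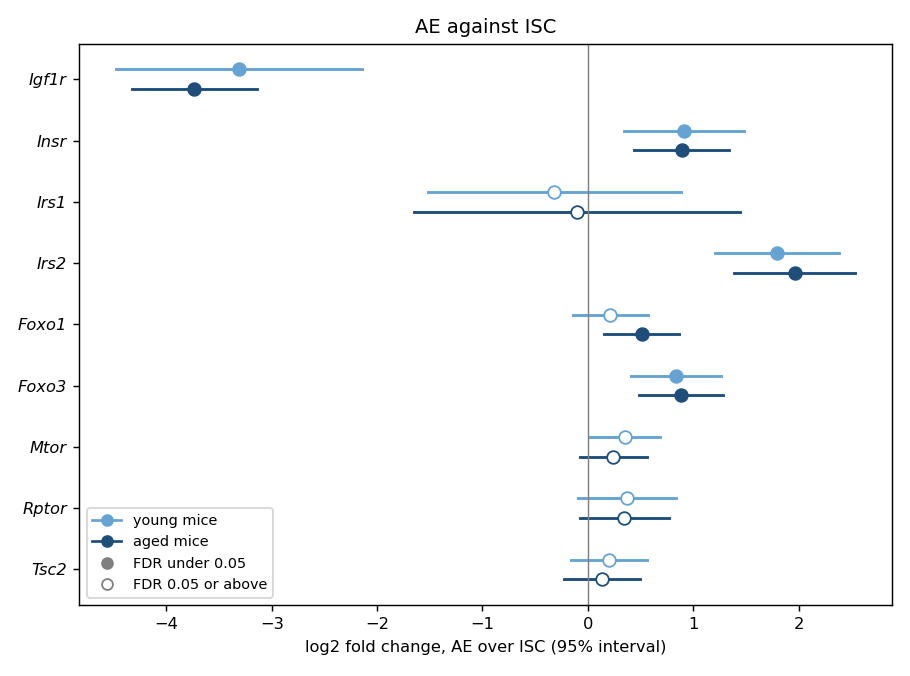
Log2 fold change of AE over ISC (horizontal axis) for each member in young and aged mice, with 95% intervals as lines and filled points where the FDR was under 0.05. *Igf1r* stands alone on the left at -3.31 and -3.74, *Irs2* is farthest to the right at 1.79 and 1.96, and the intervals of *Rptor* and *Tsc2* include 0 at both ages.

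*Mtor*, *Rptor* and *Tsc2*, which encode the kinase, its substrate-recruiting partner and its upstream inhibitor, differed less. *Mtor*, on the plus strand at chr4:148448611-148557683, was at 44.7, 41.2 and 43.3 CPM in young ISC, 42.6, 43.5 and 50.0 CPM in aged ISC, 48.5, 58.2 and 57.9 CPM in young AE and 54.5, 57.9 and 56.5 CPM in aged AE. AE libraries were above ISC libraries of the same age. Cell types did not overlap for 6 of 9 members at each age, 5 of them higher and 1 lower in AE, and for 62.9% of all genes tested in young and 69.8% in aged mice. The difference was 0.35 on the log2 scale (standard error 0.15, 95% interval 0.01 to 0.68, FDR = 0.0726, edgeR) in young and 0.24 (standard error 0.14, 95% interval -0.08 to 0.56, FDR = 0.165, edgeR) in aged mice. It passed the threshold at both ages in a fit on all 4 groups, with 0.35 (FDR = 0.032) and 0.32 (FDR = 0.0401, edgeR), and in young mice with the filterByExpr filter (FDR = 0.0385, edgeR).

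*Rptor*, on the plus strand at chr11:119602905-119899576, was at 46.9, 38.8 and 47.2 CPM in young ISC and 44.8, 54.4 and 72.8 CPM in young AE. In aged mice it was at 29.8, 34.1 and 48.0 CPM in ISC and 49.8, 52.2 and 47.3 CPM in AE. AE and ISC overlapped at both ages. It was 0.37 higher in AE on the log2 scale in young (standard error 0.20, FDR = 0.147) and 0.35 higher in aged mice (standard error 0.19, FDR = 0.133, edgeR). Without the third aged ISC library it was 0.56 in aged mice and passed the threshold. *Rptoros*, annotated on the opposite strand within *Rptor*, had 140 counts over the 12 libraries.

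*Tsc2*, on the minus strand at chr17:24595937-24632629, was at 70.7, 54.6 and 57.9 CPM in young ISC, 52.0, 48.9 and 68.2 CPM in aged ISC, 68.0, 66.3 and 76.4 CPM in young AE and 63.5, 61.6 and 70.4 CPM in aged AE. The cell types overlapped at both ages, with log2 fold changes of 0.20 (95% interval -0.16 to 0.56, FDR = 0.296, edgeR) and 0.13 (95% interval -0.23 to 0.50, FDR = 0.489, edgeR). *Tsc2* shares 572 bases with *Pkd1* on the opposite strand, which had 6071 counts over the 12 libraries. The libraries were made with a directional kit, but whether the gene counts used the strand is not given in the sources used here, so reads from the shared bases could belong to either gene.

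Levels of different members were compared per kilobase of exon. In young ISC, the mean level was 7.09 CPM per kb for *Foxo3*, 6.35 for *Tsc2* and 5.49 for *Foxo1*, whose neighbours in this order overlapped. These were followed, with a gap between the libraries, by *Mtor* at 4.26, *Insr* at 4.17, *Irs2* at 3.61 and *Rptor* at 3.29 CPM per kb, each overlapping the next. *Igf1r* at 2.35 and *Irs1* at 0.23 CPM per kb were set apart from the others and from each other. In aged ISC the order was the same but for *Insr* and *Mtor*, and all neighbours overlapped except *Igf1r* and *Irs1*. In aged AE, *Irs2* at 15.4 and *Foxo3* at 14.1 CPM per kb overlapped and led all others, *Insr*, *Foxo1* and *Tsc2* followed at 8.84, 7.59 and 6.77 CPM per kb, and *Mtor* at 5.57 and *Rptor* at 3.70 CPM per kb each stood apart. *Igf1r* at 0.21 and *Irs1* at 0.16 CPM per kb overlapped at the lower end, as they did in young AE at 0.25 and 0.20 CPM per kb. *Irs2* was in the sixth place in ISC of both ages and overlapped its neighbours there. In young AE, *Foxo3* at 12.7, *Irs2* at 12.5 and *Insr* at 7.84 CPM per kb led the order, each overlapping the next.

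The rest of the pathway was described with 105 other genes in 15 groups by role. Of 100 tested in young mice, 28 were higher and 18 lower in AE, and of 94 tested in aged mice, 31 were higher and 24 lower (FDR under 0.05, edgeR). For all genes these shares were 28.9% higher and 26.7% lower in young and 30.6% higher and 34.2% lower in aged mice. The calls were in the same direction at both ages for 43 genes, and 0 genes were called in opposite directions. The median log2 fold change was 0.25 in young and 0.16 in aged mice.

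Upstream of the members, *Igf2*, the only ligand with enough counts to test, rose in AE by 2.34 and 2.33 on the log2 scale in young and aged mice. It was low throughout, at 1.56 to 3.99 CPM in ISC and 8.37 to 17.8 CPM in AE. *Igf1* had at most 3 counts in any library and *Ins2* had 0 counts in each. Of the other receptors, *Insrr*, the insulin receptor-related receptor, rose by 2.60 and 2.89 from 0.22 to 1.02 CPM in ISC to 2.07 to 7.17 CPM in AE. *Igf2r*, which clears IGF2 by endocytosis, rose by 1.09 and 1.16. *Igfbp4*, a secreted inhibitor of IGF action, went with *Igf1r* and fell by 4.07 and 3.80 on the log2 scale, from 132.3 to 220.8 CPM in ISC to 7.02 to 19.6 CPM in AE. *Igfbp5* was called higher in young AE, at 4.12, but had too few counts to be tested between the cell types of aged mice, and the call was lost in 4 of the fits that leave out a library.

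Between the receptors and AKT, the adaptors *Gab1* (0.80 and 0.85) and *Grb2* (0.51 and 0.45) rose, although the call of *Grb2* was lost in 4 of the fits without a library in young and 2 in aged mice. The genes of the AKT phosphatases PHLPP1 and PHLPP2 changed in opposite directions. *Phlpp2* rose by 3.22 and 4.02, from 12.4 to 25.4 CPM in ISC to 161.1 to 283.8 CPM in AE, while *Phlpp1* fell by 2.13 and 2.30, from 42.9 to 62.6 CPM to 7.71 to 16.1 CPM. Of the regulatory subunits of PI3K, *Pik3r2* rose by 1.11 and 1.26 and *Pik3r1* fell by 1.11 and 1.32. *Sgk1*, a kinase related to AKT, rose by 3.71 and 3.60, and *Akt1* fell by 1.01 and 1.19.

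Of the FOXO factors beside the members, *Foxo6* rose by 2.45 and 2.60, and *Foxo4* fell by 0.54 in aged mice and was at -0.34 in young mice (FDR = 0.169, edgeR). Among 11 genes known as FOXO targets in other tissues, 5 were higher and 1 lower in young AE, and 5 were higher and 2 lower in aged AE. The largest rises were those of *Pck1* (4.48 and 5.98) and *G6pc* (3.89 and 4.43), enzymes of gluconeogenesis, and of *Ccng2* (3.02 and 3.55), a cyclin of cell cycle exit. *Pck1* and *G6pc* are also genes of differentiated enterocytes, and which factor acts on them was not measured.

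**Figure D4:**
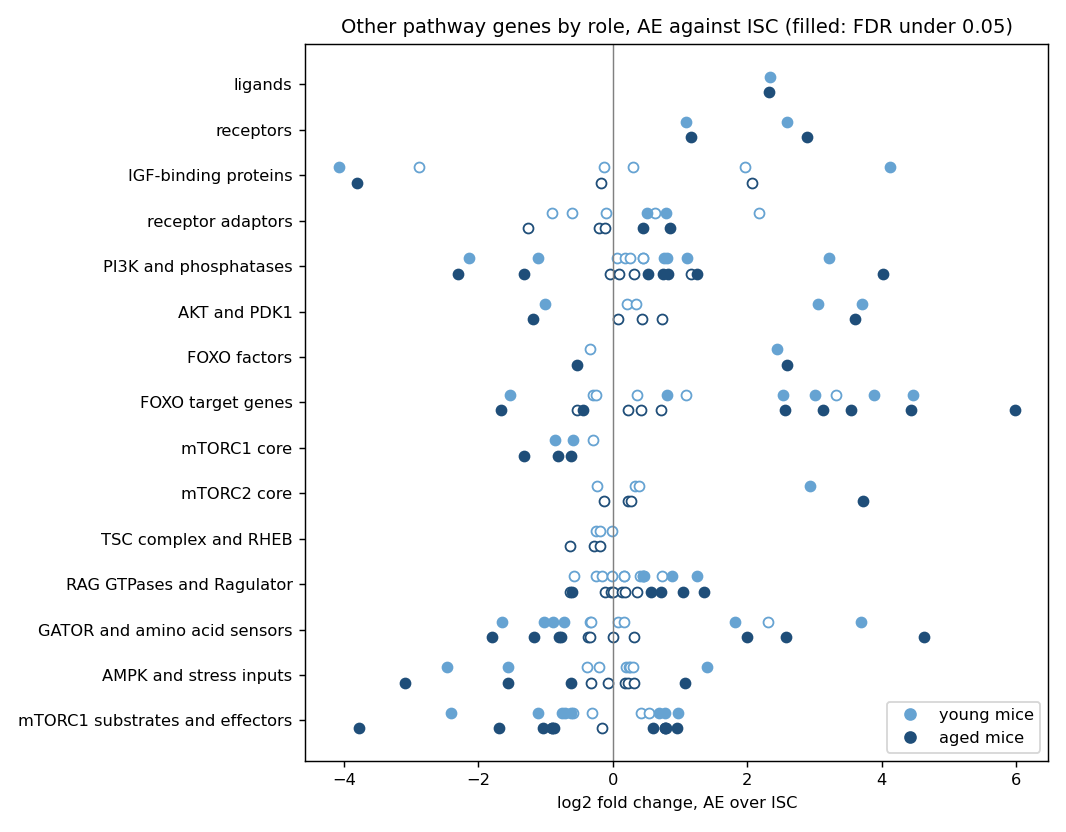
Log2 fold change of AE over ISC (horizontal axis) for the pathway genes other than the members, by role, with a point for each gene in young and aged mice, filled where the FDR was under 0.05. *Pck1* at 5.98 and *Castor2* at 4.63 in aged mice lie farthest to the right and *Igfbp4* at -4.07 in young mice farthest to the left, and no point of the group with RHEB is filled.

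Around mTOR, the inhibitory subunits of mTORC1 were lower in AE. *Deptor* fell by 0.86 and 1.33 and *Akt1s1*, which encodes PRAS40, by 0.60 and 0.82, and *Mlst8*, a subunit of both complexes, fell by 0.62 in aged mice and was at -0.30 in young mice (FDR = 0.145, edgeR). *Prr5l*, which encodes a partner of mTORC2, rose by 2.94 and 3.73. Of the genes that act with *Tsc2*, *Tsc1*, *Tbc1d7* and *Rheb*, 0 of 3 passed at either age. Of the amino acid branch, *Castor2* rose by 3.70 and 4.63. *Castor1* rose by 2.59 in aged mice (lost in 2 of the fits without a library) and was at 2.31 in young mice (FDR = 0.0952, edgeR). *Sesn1*, a leucine sensor of the sestrin family, rose by 1.82 and 2.00, and *Wdr59*, a GATOR2 subunit, fell by 1.64 and 1.79. *Fnip1* (1.25 and 1.35), which acts with the RAG GTPases, rose. So did the RAG GTPase genes *Rragd* (0.88 and 1.04) and *Rragc* (0.45 and 0.57), and the call of *Rragc* in young mice was lost in 5 of the fits without a library. *Flcn* rose in aged mice (0.71), a call also lost in 5 of these fits, and was at 0.41 in young mice (FDR = 0.0953, edgeR). Of the stress inputs, *Ddit4*, an inhibitor of mTORC1 that is induced by stress, fell by 2.47 and 3.09, and of the AMPK subunits *Prkab2* fell by 1.55 and 1.56 and *Prkag2* rose by 1.40 and 1.08.

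Of the 12 genes of mTORC1 substrates and effectors, 3 were higher and 5 lower in young AE, and 5 were higher and 6 lower in aged AE. *Eif4ebp1*, a repressor of translation, fell by 1.11 and 1.03, *Atg13*, an autophagy gene, rose by 0.97 and 0.77, and *Lpin1* fell by 1.69 in aged mice and was at -0.60 in young mice (FDR = 0.0776, edgeR). *Rps6* fell by 2.41 and 3.78 on the log2 scale. Ribosomal protein genes have many near-identical processed copies, and with uniquely mapped reads the level of *Rps6* is uncertain.

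With age, 0 of 9 members passed an FDR of 0.05 in ISC and 0 of 9 in AE, where 0% of all genes tested were called by edgeR in either cell type. At an unadjusted P under 0.05 there were 0 members in both cell types, against 5.04% of all genes in ISC and 4.79% in AE. DESeq2 also called 0 members, where it called 0.373% of all genes in ISC and 0.111% in AE. For 0 of 9 members did the young and aged libraries separate without overlap, in ISC or in AE, while 8.86% of genes tested in ISC and 10.9% in AE did so.

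**Figure D5:**
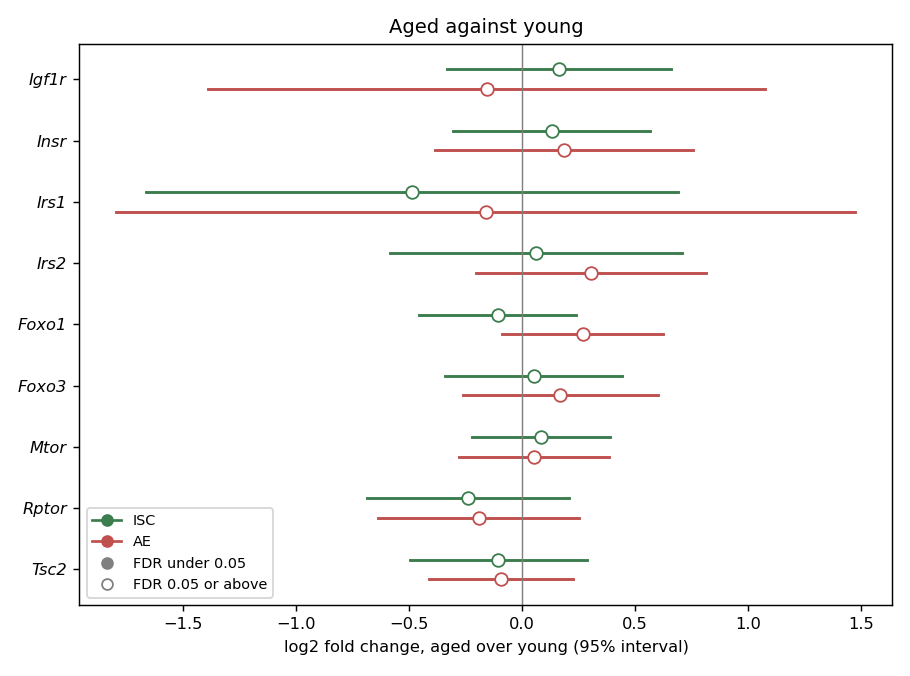
Log2 fold change of aged over young mice (horizontal axis) for each member in ISC and AE, with 95% intervals as lines, and open points throughout, as each FDR was 0.05 or above. Every interval includes 0, and those of *Mtor* are among the narrowest, -0.22 to 0.39 in ISC and -0.28 to 0.38 in AE.

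The intervals show what size of age effect remained possible. In ISC, the log2 fold change of aged over young was 0.08 for *Mtor* (95% interval -0.22 to 0.39), -0.11 for *Foxo1* (-0.45 to 0.24), 0.05 for *Foxo3* (-0.34 to 0.44) and -0.11 for *Tsc2* (-0.50 to 0.29). It was 0.13 for *Insr* (-0.31 to 0.57), 0.16 for *Igf1r* (-0.33 to 0.66), -0.24 for *Rptor* (-0.69 to 0.21) and 0.06 for *Irs2* (-0.58 to 0.71). A change by a factor of 2, which is 1 on this scale, lay outside all these intervals, whereas a fall of that size lay inside the interval of *Irs1* (-0.49, -1.67 to 0.69). The FDR was 1 for each member in ISC (edgeR).

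In AE, the smallest unadjusted P among members was that of *Foxo1*, with a log2 fold change of 0.27 (95% interval -0.09 to 0.62, FDR = 0.844, edgeR), where 2 of 3 aged libraries lay above all young ones. *Irs2* followed with 0.30 (95% interval -0.20 to 0.81, FDR = 0.848, edgeR). *Insr* was at 0.19 (-0.39 to 0.76), *Foxo3* at 0.17 (-0.26 to 0.60), *Mtor* at 0.05 (-0.28 to 0.38), *Tsc2* at -0.09 (-0.41 to 0.22) and *Rptor* at -0.19 (-0.64 to 0.25). The low levels of *Igf1r* and *Irs1* in AE left wide intervals, with -0.16 (-1.39 to 1.08) and -0.16 (-1.80 to 1.48), in which changes by a factor of 2 in either direction remain.

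Age effects were not shown to differ between AE and ISC for any member. In the test of the difference over all 12 libraries 0 of 9 members passed, and 0.00575% of all genes were called by edgeR. An unadjusted P under 0.05 was found for 0 members and for 3.88% of all genes, and DESeq2 called 0 members and 0.248% of all genes. The members' values ran from -0.33 for *Igf1r* (95% interval -1.61 to 0.95) to 0.37 for *Foxo1*.

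Of the other pathway genes, 0 passed with age in either cell type by edgeR. At an unadjusted P under 0.05 there were 6 of 96 in ISC and 4 of 99 in AE. These are near the 5.04% and 4.79% of all genes. By DESeq2 the lowest FDR was 0.262 for *Pck1* in ISC and 0.329 for *Ccng2* in AE. The lowest unadjusted P-values in ISC were those of *Grb10*, *Slc38a9* and *Pck1*, with FDR from 0.881 to 0.924 by edgeR. *Pck1* was at 12.75, 8.80 and 31.89 CPM in young and 5.70, 9.12 and 6.13 CPM in aged ISC, with overlap. Its highest value was in the third young ISC library, which had the most enterocyte markers of the ISC libraries. *Slc38a9*, a lysosomal arginine transporter that signals to the RAG GTPases, was at 9.18, 9.09 and 9.60 CPM in young and 12.6, 12.8 and 16.7 CPM in aged ISC, without overlap. *Grb10*, an adaptor that inhibits both receptors and is a substrate of mTORC1, had 8, 4 and 9 counts in young and 4, 1 and 0 in aged ISC.

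In AE, the lowest unadjusted P-values were those of *Ccng2*, *Rps6* and *Grb10*, each with an FDR of 0.844 by edgeR. *Ccng2* was at 185, 210.9 and 193.2 CPM in young and 254.3, 272.6 and 340.2 CPM in aged AE, and *Rps6* was at 25.8, 37.4 and 16.2 CPM in young and 14.4, 13.2 and 10.2 CPM in aged AE. *Grb10* had 10, 9 and 44 counts in young AE, 44 of them in the deepest library, and 2, 0 and 2 in aged AE. Its level was thus lower in the aged group of both cell types at the limit of detection, and it passed the threshold in neither. For the difference of age effects, 0 of 100 other pathway genes passed and 5 had an unadjusted P under 0.05, near the 3.88% of all genes, the lowest being those of *Castor2* (1.01), *Phlpp2* (0.86) and *Rps6* (-1.29), each with an FDR of 1 by edgeR.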

How the data were processed

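The authors trimmed reads with Trim Galore 0.4.4, mapped them to GRCm38 with HISAT2 2.1.0 and deposited raw counts of uniquely mapped reads per gene, made in SeqMonk over the exons of merged transcripts. The annotation release and strand setting are not given in the sources used here. A second deposited table holds the authors' own comparisons and was not used. Each column was assigned to the group its name spells, since 8 of 12 sample titles contradict their own library code. Libraries are numbered in column order.

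Genes with at least 10 counts over a comparison's libraries were tested with edgeR 4.0.16 (TMM, quasi-likelihood, robust) in R 4.3.3, adjusted over all genes tested, at an FDR of 0.05. CPM were computed with TMM factors over 12 libraries, with gene positions and strands from the deposited table and merged exon lengths from a GENCODE annotation of GRCm38. Promoters come from RefSeq on GRCm38.p6, in which 8 of 9 members matched. The scripts were tested on simulated data. Members, gene lists and tests were chosen with earlier results of these data known. Named pathway genes are up to 3 per role group with the largest called change of AE against ISC, and for age, where none passed, the 3 with the lowest unadjusted P, and 1 gene so named is not reported here.

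Library totals ran from 11893817 to 110794420 counts, and 3 counts or fewer were taken as the limit of detection, which covers counting error only. The methods give 3 mice per age, but not which library came from which mouse, and no label gives a batch. P-values measure only the spread between these libraries. At each age, ISC and AE columns carry the same code numbers, and those of the same number deviated together (correlations 0.121 to 0.287 in 6 of 6 pairs, against -0.214 to 0.0583 in 12 others), so the number entered an alternative fit as a replicate block. Other alternatives were DESeq2 1.42.0, other scalings and filters, a fit on all 4 groups, thinning of the deepest library, and leaving out each library.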

Additional observations from a re-analysis of the deposited data

How the results depend on the processing

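With the replicate block, 4 members were called for AE against ISC in young and 5 in aged mice and 0 for the difference of age effects, as without it, and it changed no other call of a member. Counts of members and of other pathway genes called stayed within 1.5 times under all alternatives run. Leaving out a library gave 3 to 4 members in young and 4 to 6 in aged mice, and 38 to 45 and 51 to 55 other pathway genes. The AE against ISC values of *Irs1* changed sign, between -0.85 and 0.17 in young and between -0.96 and 0.54 in aged mice.

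Age effects this close to 0 changed sign when single libraries were left out. In ISC the ranges were -0.075 to 0.31 for *Igf1r*, -0.067 to 0.27 for *Insr*, -0.21 to 0.33 for *Irs2*, -0.13 to 0.16 for *Foxo3* and -0.26 to 0.0076 for *Tsc2*. In AE they were -0.59 to 0.59 for *Igf1r*, -1.04 to 0.39 for *Irs1*, -0.029 to 0.10 for *Mtor* and -0.34 to 0.0295 for *Rptor*. For the difference they were -0.81 to 0.37 for *Igf1r*, -0.18 to 0.36 for *Insr*, -0.61 to 0.97 for *Irs1*, -0.031 to 0.52 for *Irs2*, -0.14 to 0.30 for *Foxo3*, -0.22 to 0.036 for *Mtor*, -0.20 to 0.27 for *Rptor* and -0.12 to 0.16 for *Tsc2*. The difference for *Mtor* turned to 0.0021 with DESeq2 and 0.003 with RLE scaling, and that for *Tsc2* to -0.004 with upper-quartile scaling and -0.0133 with the deepest library thinned. The calls of *Rragc* and *Grb2* in young and *Flcn* in aged mice were lost with upper-quartile scaling. The cause was not tested. Low counts limit *Igf1r* and *Irs1* in AE and *Grb10* throughout.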

Other observations

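For each member, the gene whose log2 CPM was most like it over the 12 libraries was looked up among 11408 genes with a mean log2 CPM of at least 1. These were *Scn2b*, a sodium channel subunit, for *Igf1r* (Pearson r = 0.996), *Rnf152*, a ubiquitin ligase of the lysosome, for *Insr* (0.977), *Slc25a37*, a mitochondrial iron transporter, for *Irs2* (0.984), *Slc6a6*, the taurine transporter, for *Foxo3* (0.983) and *Ppip5k2*, an inositol pyrophosphate kinase, for *Mtor* (0.979). For *Foxo1* it was *Ptpn12* (0.955), for *Tsc2* *Cabin1* (0.939), for *Rptor* *Rsc1a1* (0.914) and for *Irs1*, the lowest expressed member, *Rab6b* (0.857). The 12 libraries share 2 cell types, so the step between ISC and AE enters these coefficients. With the group means taken out, the coefficients of the 9 pairs were between 0.822, for *Rsc1a1* and *Rptor*, and 0.973, for *Scn2b* and *Igf1r*, and were higher than before for *Tsc2* (0.964) and *Irs1* (0.894). Each is the highest of many, and no test was made.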
